A study of Mus musculus with 24 samples.

Results

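The enteroendocrine hormone genes were followed across the ileal CD45- cells of 4 genotypes. They are 10 of the 39056 genes counted and were listed by name: Chga, Chgb, Gcg, Cck, Sct, Sst, Nts, Pyy, Gip and Tph1. CD45- cells, here epithelial, endothelial and stromal cells without the leukocyte marker CD45, were sorted from ileal epithelial and lamina propria cells of C57BL/6 mice (C57BL/6J in the methods of the study) aged 9.0 to 10.3 weeks. The mice were Hoil1+/+ or Hoil1-/-, the latter carrying the Rbck1tm1Kiwa allele in the whole animal which leaves them deficient in HOIL1, a subunit of the linear ubiquitin chain assembly complex, with a small amount of its N-terminal domain still made. All of them carried Il4ra with both alleles floxed. The f/f mice had no Cre and keep the IL-4 receptor alpha chain, and the dIEC mice carried Vil1-cre, which is driven by the villin promoter in the intestinal epithelium and deletes Il4ra there only. Each of the 4 genotypes had 3 CD45- libraries, 12 in all, and 12 CD45+ libraries were made alongside. The labels do not say that each library came from its own mouse, so p-values measure the spread between these samples. Tests used 11 CD45- libraries because the study removed the Hoil1-/-Il4ra f/f replicate 3 library as an outlier. That library is called the left-out library, and its values are given beside the others.

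Enteroendocrine cells are rare secretory cells scattered along the intestinal epithelium. They sense luminal nutrients and microbial products, package hormones in dense-core granules with the help of granin proteins, and release them to nerves, neighbouring cells and the blood. They arise from crypt progenitors through the transcription factor NEUROG3, and one cell often makes several hormones, whose combination shifts with position along the crypt to villus axis and along the gut.

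Nearly all counts of the members were in the CD45- fraction. By CPM (counts of a gene per 1000000 counts of its library), each member had counts in at least 11 of 12 CD45- libraries and a median of 0 in the CD45+ libraries except Tph1. Chga had a median of 287 CPM in CD45- libraries and counts in 5 of 12 CD45+ libraries, where its highest level was 2.39 CPM. Tph1 had counts in 11 of 12 CD45+ libraries, at a median of 1.46 and a highest level of 10.2 CPM, beside 25.6 CPM in CD45- libraries. Tph1 is also expressed by mast cells, and the mast cell genes Cpa3 and Mcpt1 were at medians of 11.5 and 267 CPM in the CD45+ libraries (both named after their values were seen). Their part in the CD45+ Tph1 level was not tested. The CD45+ library with the highest Tph1 level had Cpa3 at 13.3 CPM. The CD45+ library with the highest Cpa3 level, 23.2 CPM, had Tph1 at 1.72 CPM. In the CD45- libraries Cpa3 had no count in any of the 12, and Mcpt1 had counts in 1. Kit, which was also looked at, had counts in all 12 CD45- libraries, at a median of 21.4 CPM.

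Total counts ranged from 6028275 to 68345191 in the CD45- libraries (median 14829462), so that 3 counts, taken as the smallest visible level, corresponded to 0.0439 to 0.498 CPM by total counts. The summed level of the 10 members spanned 351 to 1848 CPM, Epcam, an adhesion molecule of all epithelial cells, spanned 177 to 1467 CPM, and the sum of 11 enterocyte genes spanned 586 to 51375 CPM. These and all following CD45- levels are TMM-scaled CPM, that is, CPM after scaling the library sizes by the trimmed mean method of edgeR. Markers of enteric neurons, which also make some of these peptides, summed to 17.9 to 123 CPM over 10 genes. The highest of them, Stmn2 and Uchl1, had means of 31.0 and 16.4 CPM and counts in all 12 libraries. The lowest, Elavl4 and Elavl3, had counts in 4 and 1 of 12 libraries. Because RNA was measured in bulk, fewer hormone cells and less hormone RNA per cell cannot be told apart. Rbck1, the gene of HOIL1, was at 105 ± 13.9 CPM in the 6 Hoil1+/+ libraries (mean ± SD) and at 5.5 ± 2.29 CPM in 5 Hoil1-/- libraries, and had no count in the left-out library. Il4ra did not mark the dIEC libraries, with a log2 fold change of 0.02 (adjusted p = 1.0, standard error 0.35) in edgeR between dIEC and f/f, in a fraction that also holds endothelial and stromal cells, which keep the gene. Its level therefore does not check that label.

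Positions are those of GENCODE M21 on GRCm38, matched by gene identifier. The level of a gene per kilobase of exon can be compared between genes, and on that scale the granin genes led. Median CPM per kb over the 12 CD45- libraries ran from 173 for Chgb through 112 for Chga, 101 for Sst, 93.1 for Gip, 68.7 for Gcg, 64.3 for Sct, 39.9 for Pyy, 38.2 for Cck and 8.17 for Nts to 3.99 for Tph1. The ranges of every pair of neighbours in this order overlapped across libraries.

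**Figure D1:**
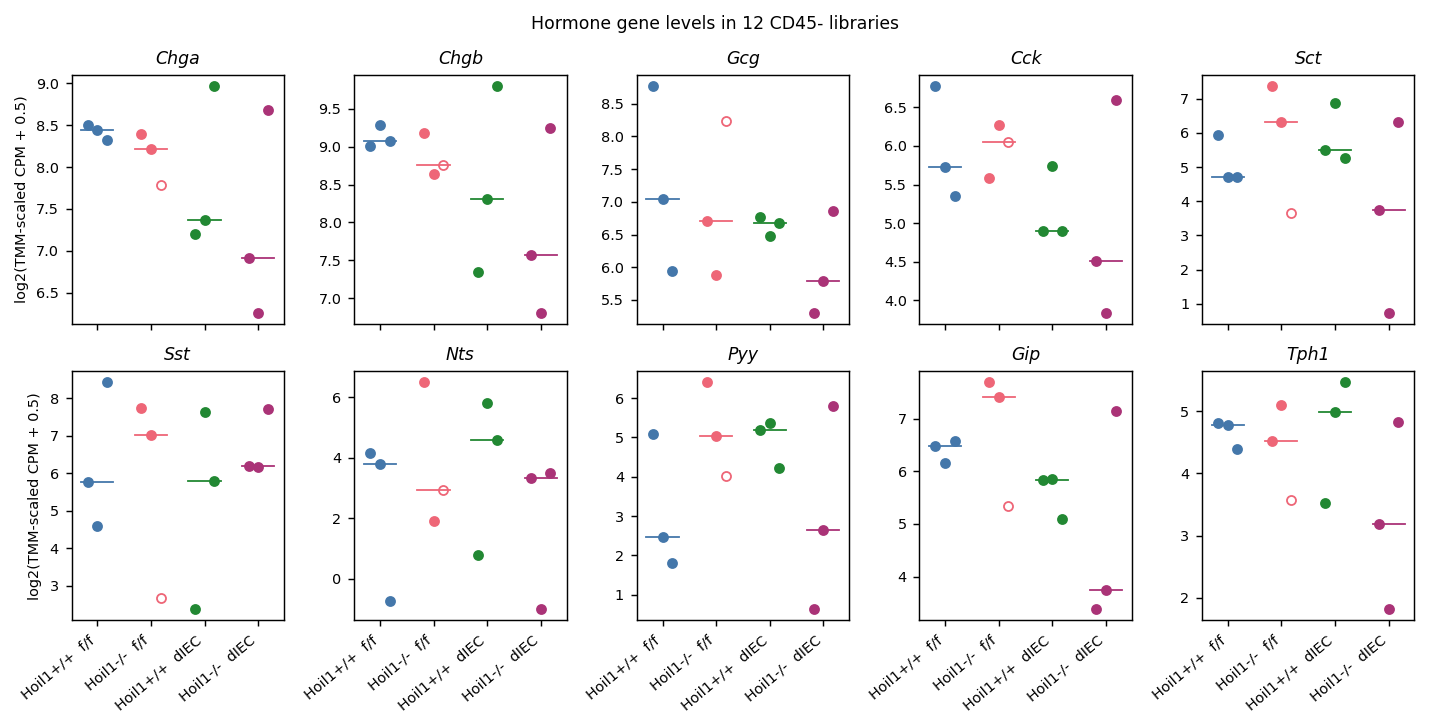
Level of each hormone gene in each of the 12 CD45- libraries, as log2 of TMM-scaled CPM plus 0.5, by genotype (3 points per group, horizontal lines at the median, open circles for the left-out library, axes scaled per gene). No gene separates all Hoil1-/- from all Hoil1+/+ libraries, and Nts and Sct span the widest ranges.

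Chga (ENSMUSG00000021194.5, chr12:102554969-102565028, plus strand) and Chgb (ENSMUSG00000027350.8, chr2:132781278-132795079, plus strand) encode chromogranin A and B, acidic proteins of the hormone granule used as general markers of endocrine cells. Chga in the f/f groups was at 363, 349 and 319 CPM with Hoil1+/+, at 336 and 297 CPM with Hoil1-/- and at 221 CPM in the left-out library. The dIEC groups had Chga at 146, 164 and 501 CPM with Hoil1+/+ and at 120.2, 76.2 and 409 CPM with Hoil1-/-. The dIEC libraries spread over a 6.58-fold range and the f/f libraries over a 1.64-fold range, and the Hoil1 groups overlapped in each. By CPM on total counts the f/f groups did not overlap for Chga. All 3 Hoil1-/- libraries were then lower, as for 14.7% of all genes.

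Chgb was at 515, 624 and 539 CPM in the Hoil1+/+ libraries and at 579.9 and 397 CPM in the Hoil1-/- libraries of f/f mice, with 432 CPM in the left-out library. Among dIEC libraries Chgb was at 162, 317 and 889.9 CPM in the Hoil1+/+ and at 191, 112 and 605 CPM in the Hoil1-/- libraries. The ratio of Chgb to Chga, in CPM not divided by length, stayed between 1.11 and 1.95, with a median of 1.73 in the 6 Hoil1+/+ and 1.53 in the 6 Hoil1-/- libraries.

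Of the 45 pairs of members, Chga and Chgb had the most even ratio: its log2 values had an SD of 0.238 over the 12 libraries. The next pairs were Chga with Tph1 at 0.527 and Chgb with Tph1 at 0.554. The least even was Sst with Nts at 2.83, a 675-fold range of the ratio. These are descriptions across libraries that also differed in depth and epithelial content.

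**Figure D2:**
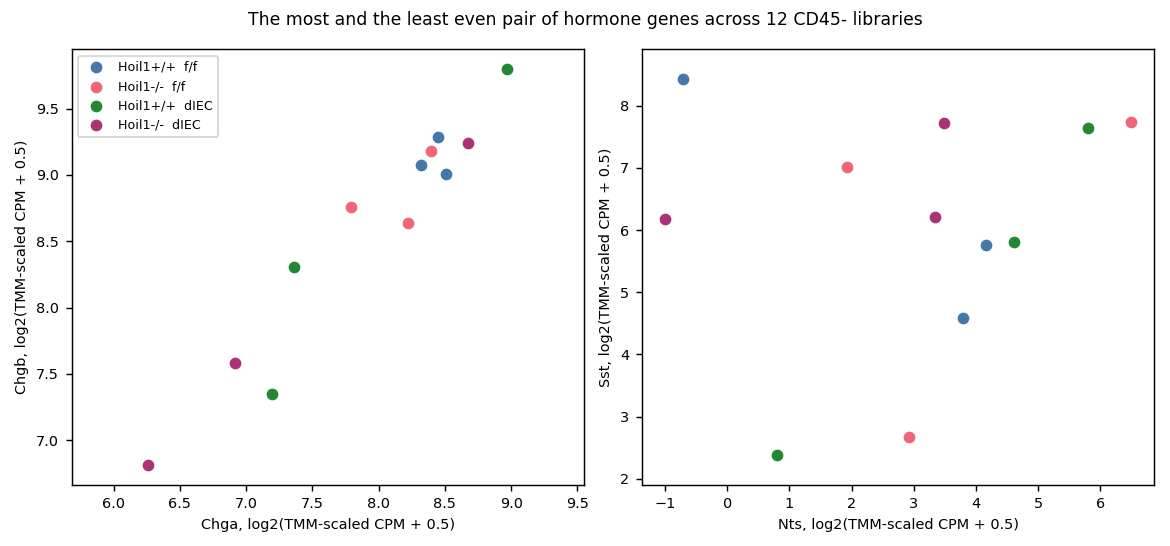
Chgb against Chga (left) and Sst against Nts (right) in the 12 CD45- libraries, both axes as log2 of TMM-scaled CPM plus 0.5, coloured by genotype. The Chga and Chgb points lie along a line, with ratios from 1.11 to 1.95, whereas the Sst and Nts points are scattered.

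Promoter sequence is shown for 3 members, chosen because their promoters matched a motif, 2 exactly and Chga in a looser form only. The cyclic AMP response element, TGACGTCA, reads the same on both strands. It was found in the windows of Chgb and Sst, 2 of 10 members or 2 of their 12 windows. Of 32851 RefSeq promoter windows of the same length (250 bases before to 50 after the start, GRCm38.p6), 1.79% held it. The looser TGACGTNA, which includes every TGACGTCA and was searched on both strands, was also found in Chga. It thus occurred in 3 of 10 members, 3 of their 12 windows, and 2.93% of all windows. The match began 44 bases before the RefSeq start of Chga, 72 before that of Chgb and 48 before that of Sst. Each stretch has 30 bases, written 5′ to 3′ on the strand of the gene with the match in capitals. The Chgb and Sst stretches overlap an exon of the same gene in GENCODE M21, and the Chga stretch does not.
Chga (chr12:102554886-102554915, plus strand): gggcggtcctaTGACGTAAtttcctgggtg
Chgb (chr2:132781559-132781588, plus strand): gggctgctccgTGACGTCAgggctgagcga
Sst (chr16:23890874-23890903, minus strand): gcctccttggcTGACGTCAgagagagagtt
A match describes the letters only and says nothing of whether a factor binds there in these cells.

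Tph1 (ENSMUSG00000040046.14, chr7:46644641-46672537, minus strand) encodes tryptophan hydroxylase 1, which makes the first product of serotonin synthesis in enterochromaffin cells. Tph1 was at 27.5, 26.9 and 20.5 CPM in the Hoil1+/+ libraries and at 22.4 and 33.8 CPM in the Hoil1-/- libraries of f/f mice, with 11.3 CPM in the left-out library. Among dIEC libraries Tph1 was at 11, 31.2 and 43.6 CPM in the Hoil1+/+ and at 8.62, 3.03 and 27.7 CPM in the Hoil1-/- libraries. Its lowest values were in 2 Hoil1-/-Il4ra dIEC libraries and the third library of that group was among the high ones. Tph1 was the lowest member per kb, yet after the granins it was the most evenly matched to Chga.

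Gcg (ENSMUSG00000000394.15, chr2:62474530-62483650, minus strand) encodes proglucagon, the precursor of GLP-1 and GLP-2 in intestinal L cells, and Pyy (ENSMUSG00000017311.15, chr11:102106676-102107832, minus strand) encodes peptide YY of the same cells. Gcg in the f/f groups was at 437, 132 and 61.3 CPM with Hoil1+/+, at 104 and 58.8 CPM with Hoil1-/- and at 299.9 CPM in the left-out library. The dIEC groups had Gcg at 108, 88.7 and 102 CPM with Hoil1+/+ and at 39.1, 54.9 and 116 CPM with Hoil1-/-. Gcg had its highest values in Hoil1+/+Il4ra f/f replicate 1 and in the left-out Hoil1-/- library, so each Hoil1 genotype held one of them.

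Pyy was at 33.7, 5.07 and 2.99 CPM in the Hoil1+/+ libraries and at 83.9 and 32.1 CPM in the Hoil1-/- libraries of f/f mice, with 15.7 CPM in the left-out library. Among dIEC libraries Pyy was at 35.8, 41.0 and 18.3 CPM in the Hoil1+/+ and at 1.05, 5.73 and 55.1 CPM in the Hoil1-/- libraries. Pyy was lowest in Hoil1-/-Il4ra dIEC replicate 1 and highest in Hoil1-/-Il4ra f/f replicate 1.

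Cck (ENSMUSG00000032532.7, chr9:121489824-121495694, minus strand) encodes cholecystokinin, which releases bile and pancreatic enzymes after a fatty meal. Cck in the f/f groups was at 109, 52.3 and 40.4 CPM with Hoil1+/+, at 47.4 and 76.5 CPM with Hoil1-/- and at 66.1 CPM in the left-out library. The dIEC groups had Cck at 29.2, 52.8 and 29.2 CPM with Hoil1+/+ and at 22.3, 13.8 and 95.9 CPM with Hoil1-/-. Relative to Epcam, Cck had the smallest SD within genotypes among the members, at 0.659 log2 units over the 11 libraries.

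Sct (ENSMUSG00000038580.13, chr7:141278330-141279133, minus strand) encodes secretin, which stimulates bicarbonate secretion. Levels of Sct were 60.6, 25.8 and 25.6 CPM in Hoil1+/+ and 166 and 78.8 CPM in Hoil1-/- libraries of f/f mice, and 12.1 CPM in the left-out library. The dIEC values of Sct were 45.2, 118 and 37.8 CPM with Hoil1+/+ and 12.9, 1.17 and 78.7 CPM with Hoil1-/-. Both Hoil1-/- libraries of f/f mice used in the tests were above all 3 Hoil1+/+ libraries, as for 15.0% of all genes, but the left-out library was below them.

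Gip (ENSMUSG00000014351.12, chr11:96024545-96030831, plus strand) encodes glucose-dependent insulinotropic polypeptide, the incretin of K cells. Gip was at 88.6, 70.6 and 95.1 CPM in the Hoil1+/+ libraries and at 206 and 169 CPM in the Hoil1-/- libraries of f/f mice, with 39.8 CPM in the left-out library. Among dIEC libraries Gip was at 56.4, 57.3 and 33.5 CPM in the Hoil1+/+ and at 9.93, 12.8 and 141 CPM in the Hoil1-/- libraries. Gip followed the pattern of Sct in f/f mice, with the left-out library again lowest. In dIEC mice 2 Hoil1-/- libraries were below and 1 was above all 3 Hoil1+/+ libraries.

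Nts (ENSMUSG00000019890.4, chr10:102481756-102490486, minus strand) encodes neurotensin, a hormone released after fat intake. Levels of Nts were 17.4, 13.3 and 0.107 CPM in Hoil1+/+ and 89.6 and 3.28 CPM in Hoil1-/- libraries of f/f mice, and 7.07 CPM in the left-out library. The dIEC values of Nts were 1.23, 55.3 and 23.8 CPM with Hoil1+/+ and 9.67, 0 and 10.7 CPM with Hoil1-/-. It had no count in Hoil1-/-Il4ra dIEC replicate 2, where 3 counts would be 0.121 CPM, and only 3 counts in Hoil1+/+Il4ra f/f replicate 3. Its SD within genotypes was 2.72 log2 units (log2 of CPM plus 0.5, 11 libraries), wider than in 99.8% of genes.

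Sst (ENSMUSG00000004366.3, chr16:23889573-23890958, minus strand) encodes somatostatin, the inhibitory peptide of D cells. Levels of Sst were 53.6, 23.6 and 344 CPM in Hoil1+/+ and 213 and 129 CPM in Hoil1-/- libraries of f/f mice, and 5.87 CPM in the left-out library. The dIEC values of Sst were 4.71, 198 and 55.5 CPM with Hoil1+/+ and 73.3, 71.7 and 211 CPM with Hoil1-/-. High and low libraries occurred in both Hoil1 genotypes. The SD within genotypes was 1.84 log2 units for Sst, 1.74 for Pyy and 1.63 for Sct, beside 0.852 for Chga and a median of 0.646 over all genes kept.

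The leading peptide hormone changed from library to library. As a share of the summed CPM per kb of the 7 peptide genes, Sst led in 6 of 12 libraries, Gip in 4 and Gcg in 2. Sst ranged from 2.1% to 65.2% of the sum and Gcg from 5.6% to 54.7%. Sst led in 3 of 3 Hoil1-/-Il4ra dIEC libraries, with 53.8%, 56.4% and 33.8%, and in 2 of 3 Hoil1+/+Il4ra dIEC libraries, with 36.6% and 23.9%. No test was made of these shares.

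**Figure D3:**
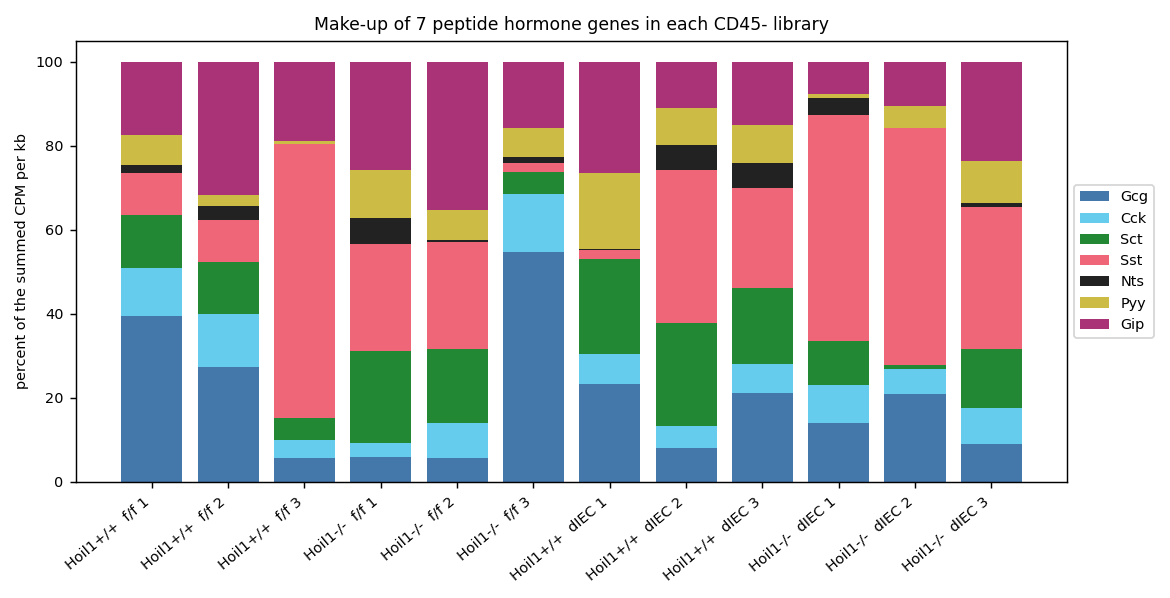
Share of each of 7 peptide hormone genes in their summed TMM-scaled CPM per kb of exon, 1 bar per CD45- library (labelled by genotype and replicate, in percent). The make-up differs between libraries of the same genotype: Sst is 65.2% in Hoil1+/+Il4ra f/f replicate 3 and 10.1% in replicate 2.

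To ask whether HOIL1 deficiency changed hormone expression, Hoil1-/- and Hoil1+/+ libraries were compared with the quasi-likelihood test of edgeR, and p-values were adjusted over all 16453 genes tested, among them all 10 members. Averaged over the Il4ra genotypes, 0 of 10 members passed an adjusted p of 0.05, beside 0.0182% of all genes, and 0 of 10 had an unadjusted p under 0.05, beside 5.28% of all genes. DESeq2 and the likelihood ratio test of edgeR also called 0 of 10. The median log2 fold change was 0.08 over the members and -0.08 over all genes.

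Gcg had the largest difference, a log2 fold change of -0.94 (adjusted p = 0.927, standard error 0.48) from edgeR. Next in size were Pyy at 0.72 (adjusted p = 1.0, standard error 0.88) and Gip at 0.64 (adjusted p = 1.0, standard error 0.59). The granins were at -0.27 for Chga and -0.40 for Chgb, and Tph1 at -0.49. The other log2 fold changes were 0.37 for Sst, 0.29 for Sct, 0.09 for Nts and 0.06 for Cck, with adjusted p of 1.0 in edgeR for each. The narrowest 95% interval was -1.28 to 0.74 for Chga and the widest was -2.78 to 2.97 for Nts. The half-widths of the 10 intervals ran from 1.01 to 2.87 log2 units.

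Within f/f mice 0 of 10 members passed, beside 0.0365% of all genes, and 0 of 10 had an unadjusted p under 0.05, beside 13.1%. The log2 fold changes ran from -1.37 for Gcg to 2.19 for Nts, with Sct at 1.72 and Gip at 1.14, and the lowest adjusted p among members in edgeR was 0.413. Within dIEC mice 0 of 10 passed, beside 0.00608%, and 0 of 10 had an unadjusted p under 0.05, beside 7.66%. There the values ran from -1.997 for Nts to 0.46 for Sst, with Sct at -1.13 and Tph1 at -1.15, and the lowest adjusted p in edgeR was 0.653. The pair of comparisons was set against each other as the interaction of Hoil1 and Il4ra. It passed for 0 of 10 members, beside 0.0% of all genes, and 0 of 10 had an unadjusted p under 0.05, beside 20.7%. Its values ran from -4.18 for Nts to 0.86 for Gcg, with a lowest adjusted p of 0.307 among members in edgeR. DESeq2 and the likelihood ratio test called 0 of 10 in each of these comparisons, as did the exact test of edgeR within each Il4ra genotype.

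To ask whether loss of Il4ra in the epithelium changed them, dIEC and f/f libraries were compared over both Hoil1 genotypes. Of the 10 members 0 passed, beside 0.0% of all genes, and 0 had an unadjusted p under 0.05, beside 5.9%. All 10 fitted values were below 0 with the 11 libraries, from -1.29 for Gip to -0.15 for Pyy, with a median of -0.60 beside 0.06 over all genes. Pyy turned to 0.047 with all 12 libraries. For Gip the log2 fold change was -1.29 (adjusted p = 0.808, standard error 0.59) in edgeR. Without Hoil1-/-Il4ra dIEC replicate 3, the 1 library of its group with high Gip, it was -2.41 with an adjusted p of 0.0178 in edgeR. That library decided the call, and Gip was the only member called in any leave-one-out fit of this comparison. The number called over all genes also varied between these fits, as given at the end, so the call is not shown to be particular to Gip. Over all its alternatives the adjusted p of Gip ran from 0.0178 to 1.0. DESeq2 and the likelihood ratio test called 0 of 10 members. Relative to Epcam, as given below, 8 of the 10 fitted values were below 0 and 2 were above.

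**Figure D4:**
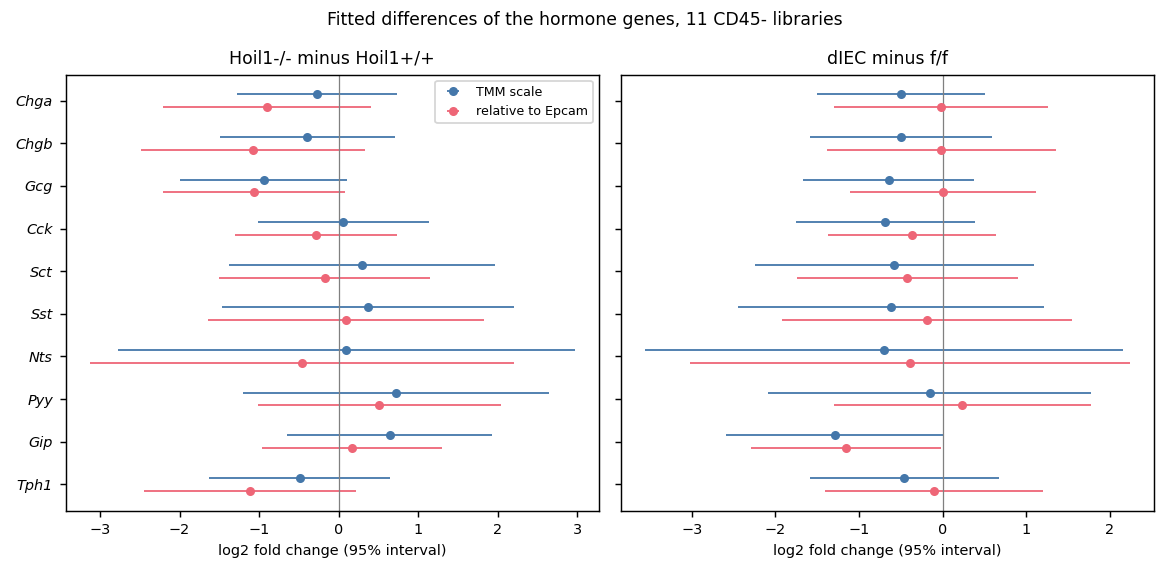
Log2 fold changes of the 10 hormone genes with 95% intervals from the edgeR fit of 11 CD45- libraries, for Hoil1-/- minus Hoil1+/+ averaged over Il4ra genotypes (left) and dIEC minus f/f averaged over Hoil1 genotypes (right). Blue points use TMM scaling and red points use Epcam counts as the scale. All but the interval of Gip relative to Epcam in the right panel include 0.

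Because the libraries differed in epithelial marker levels, the levels were also given relative to Epcam in the same library. Chga in f/f mice was at 46.4, 133 and 74.6% of Epcam in the Hoil1+/+ and at 22.9 and 22.8% in the Hoil1-/- libraries, with 40.3% in the left-out library. In dIEC mice it was at 10.6, 15.5 and 99.6% in the Hoil1+/+ and at 30.4, 43.0 and 60.4% in the Hoil1-/- libraries. The f/f groups did not overlap, with Hoil1-/- lower as for 22.3% of all genes with all 12 libraries, and the dIEC groups did.

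Gcg in f/f mice was at 55.9, 50.3 and 14.3% of Epcam in the Hoil1+/+ and 7.07 and 4.5% in the Hoil1-/- libraries. The left-out Hoil1-/- library, at 54.7%, fell within the Hoil1+/+ values. In dIEC mice Gcg was at 7.84, 8.37 and 20.2% in the Hoil1+/+ and 9.89, 31.0 and 17.2% in the Hoil1-/- libraries. Cck was at 14, 19.9 and 9.45% and 3.23 and 5.86% in the f/f groups, with 12.1% in the left-out library, and at 2.11, 4.98 and 5.8% and 5.64, 7.79 and 14.2% in the dIEC groups.

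**Figure D5:**
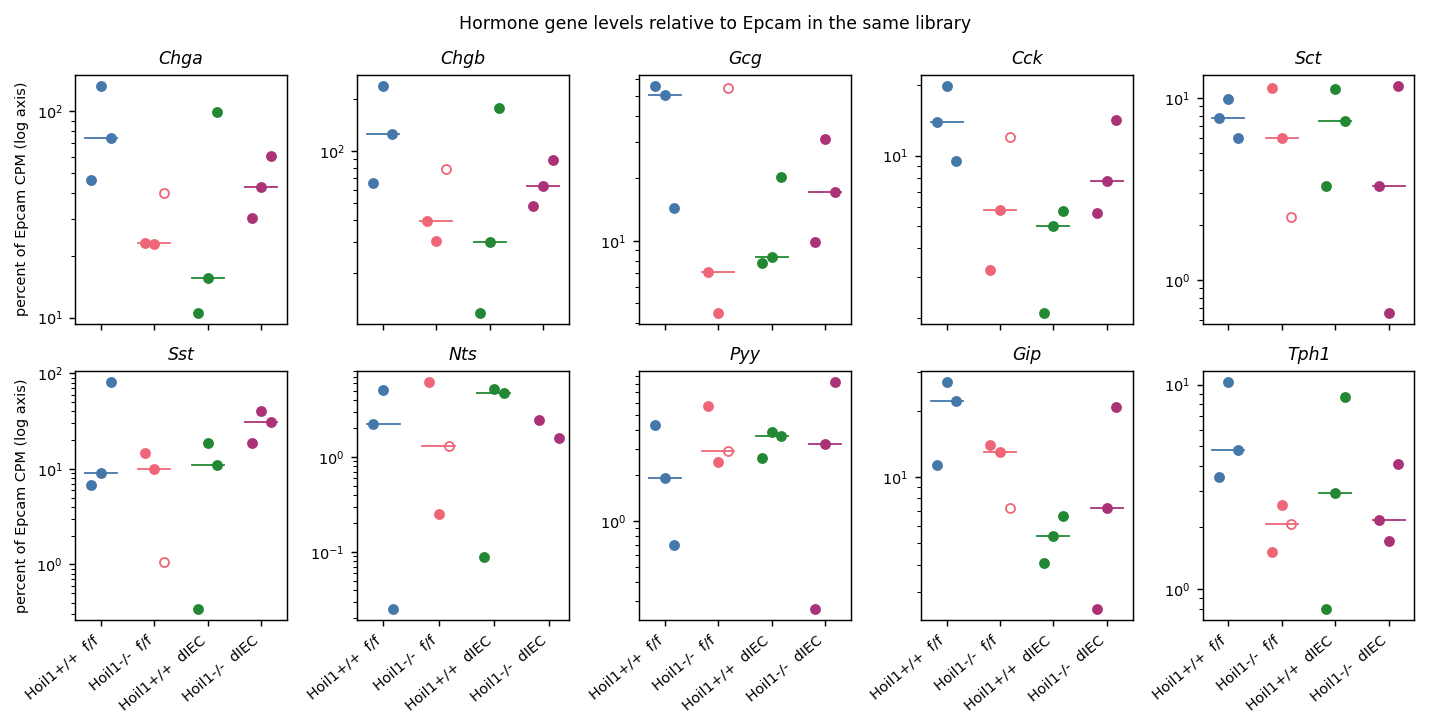
Level of each hormone gene as a percent of the Epcam level in the same CD45- library, on a log axis scaled per gene, by genotype (lines at the median, open circles for the left-out library). The Nts value of Hoil1-/-Il4ra dIEC replicate 2 was 0 and is not drawn. The filled Hoil1-/- points of f/f mice for Chga, Chgb, Gcg, Cck and Tph1 lie below all Hoil1+/+ points, as they would for 61.8% of all genes. With the open circle included this holds for Chga and Tph1 only.

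Of the 10 members, 5 (Chga, Chgb, Gcg, Cck and Tph1) were lower relative to Epcam in both Hoil1-/- libraries than in all 3 Hoil1+/+ libraries of f/f mice. The same held for 61.8% of all genes, so the count says nothing particular to hormone genes, and 0 of 10 were higher without overlap, beside 2.21%. The log2 fold change of Epcam itself on the TMM scale was 1.499 (adjusted p = 0.363, standard error 0.60) in the same mice in edgeR. With the left-out library included, 2 of 10 (Chga and Tph1) remained lower without overlap, beside 22.3%, and 0 were higher, beside 0.377%. On the TMM scale, without the left-out library, 2 of 10 (Sct and Gip) were higher without overlap in f/f mice, beside 15.0%, and 0 were lower, beside 19.2%. When that library was included, 0 were higher, beside 4.19%, and 0 were lower, beside 10.2%.

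In dIEC mice no member separated the Hoil1 groups on either scale. On the TMM scale 5.19% of all genes were lower and 6.46% higher without overlap, and relative to Epcam 0.815% and 15.7%. Over both Il4ra genotypes, 0 of 10 members separated the 5 Hoil1-/- from the 6 Hoil1+/+ libraries, beside 0.0973% of genes lower and 0.0486% higher on the TMM scale. Relative to Epcam the background was 0.0365% lower and 0.0365% higher.

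In the edgeR fit scaled to Epcam, the Hoil1 effect averaged over Il4ra genotypes passed for 0 of 10 members, beside 0.0% of all genes, and 0 of 10 had an unadjusted p under 0.05, beside 3.76%. The values were -0.90 for Chga, -1.08 for Chgb, -1.11 for Tph1 and -1.06 for Gcg. The remaining 6 were -0.46 for Nts, -0.29 for Cck, -0.18 for Sct, 0.09 for Sst, 0.17 for Gip and 0.51 for Pyy. The member median was -0.38, against 0.08 on the TMM scale, and the median over all genes was -0.27, against -0.08. For the Il4ra effect, 0 of 10 passed, beside 0.0%, and 1 of 10, Gip, had an unadjusted p under 0.05, beside 5.54%, at -1.15 (adjusted p = 0.647, standard error 0.53) in edgeR. The Il4ra values were below 0 for 8 and above 0 for 2 members, with Chga and Chgb at -0.02 and Pyy highest at 0.23. Their median was -0.15, beside 0.63 over all genes. DESeq2 and the likelihood ratio test called 0 of 10 in both comparisons.

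The comparisons within each Il4ra genotype relative to Epcam were added after the values had been seen. In f/f mice 0 of 10 members passed, beside 0.0%, and 2 of 10, Gcg at -2.80 (adjusted p = 0.146, standard error 0.88) and Cck at -1.67 (adjusted p = 0.146, standard error 0.75) in edgeR, had an unadjusted p under 0.05, beside 33.6% of all genes. DESeq2 called 1 of 10 there, Gcg at -2.80 with an adjusted p of 0.00859, where the alternatives ran from 0.00859 to 0.51, and it called 33.0% of all genes there. The median log2 fold change in f/f mice was -1.49 over the members and -1.94 over all genes. In dIEC mice 0 of 10 passed, beside 0.0%, and 0 of 10 had an unadjusted p under 0.05, beside 17.4%. The medians there were 0.15 over the members and 1.42 over all genes. The interaction relative to Epcam passed for 2 of 10 members, Gcg at 3.47 (adjusted p = 0.0386, standard error 1.10) and Cck at 2.77 (adjusted p = 0.0413, standard error 0.98) in edgeR, and the same 2 had an unadjusted p under 0.05. Over all genes 43.8% passed and 59.0% had an unadjusted p under 0.05, so the share of members called was below that of the table. The median interaction was 1.71 over the members and 3.39 over all genes. The interaction of Epcam itself on the TMM scale was -2.74 (adjusted p = 0.142, standard error 0.82) in edgeR, and Epcam was the denominator of every ratio. With all 12 libraries 0 of 10 members passed this interaction, with Gcg at 1.54 and Cck at 2.14.

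The wider endocrine program was described from 6 lists of named genes. Between Hoil1-/- and Hoil1+/+ libraries, over both Il4ra genotypes, 0 members of any of these lists passed in edgeR in either direction: 0 of 20 transcription factors, 0 of 23 genes of granules and prohormone processing, 0 of 6 other hormone genes, 0 of 7 genes of serotonin handling, 0 of 12 nutrient sensors and 0 of 12 hormone receptors and peptidases. The filter on low counts had kept these from lists of 20, 23, 8, 8, 15 and 17 genes. In the same order, the median log2 fold changes were -0.54, -0.51, -0.78, -0.46, -0.13 and -1.32, beside -0.08 over all genes. Genes with few counts, and with none in some libraries, carry several of the larger fitted values, which then depend on the prior count. At an unadjusted p under 0.05 there were 11 of the 80 genes tested on these lists, 13.8% of them, beside 5.28% of all genes, and all had values below 0. Those given here were named after their values were seen: the transcription factors Pax4 and Etv1, 2 granule genes (Rimbp2 and Stx1a), 2 of the other hormone genes (Mboat4 and Ucn3), Slc18a2 from the serotonin handling list, the fat sensor Gpr119, and the somatostatin receptors Sstr1 and Sstr3. DESeq2 called 3 genes of these lists (Etv1, Pcsk2 and Slc18a2), beside 1.06% of all genes, and the likelihood ratio test 2 (Etv1 and Slc18a2), beside 0.821%. In f/f mice, with 2 Hoil1-/- libraries, the log2 fold changes were -9.79 for Etv1, -7.31 for Pax4, -9.10 for Sstr1 and -2.28 for Stx1a. In dIEC mice these 4 genes were at -0.26, -0.29, -0.87 and 0.19. The other genes named were below 0 in both Il4ra genotypes.

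Among markers of other cells in the fraction, 1 of 86 genes tested on 12 lists passed in the averaged Hoil1 comparison. It was Trpm5, the cation channel of tuft cell sensing, at 2.26 (standard error 0.28, adjusted p = 0.0497 in edgeR). Within f/f mice Trpm5 was at 4.58 (standard error 0.44, adjusted p = 0.00756 in edgeR) and Avil, an actin-binding protein of tuft cells, at 4.202 (standard error 0.54, adjusted p = 0.0336 in edgeR). With all 12 libraries neither passed, with log2 fold changes of 4.01 and 3.65 in f/f mice and adjusted p of 0.324 and 0.302 in edgeR. The enteric neuron and glia lists had 0 of 9 and 0 of 4 genes past the threshold in the averaged comparison, with medians of -3.17 and -2.15. Only 2 of 10 listed neuron genes and 0 of 4 glia genes had counts in all 12 CD45- libraries. The neuron sum had a median of 50.0 CPM in the 6 Hoil1+/+ and 76.2 CPM in the 6 Hoil1-/- libraries. For the glia sum these medians were 8.54 and 14.3 CPM, with the left-out library included. Nerve cells share granule genes such as Stx1a and Snap25 with endocrine cells, and their part in the granule values was not tested.

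In each list the genes with the highest mean CPM are named, a level that also follows transcript length. Among the transcription factors these were Hhex, a homeobox factor of D cells, at a mean of 34.0 CPM over the 12 CD45- libraries and Foxa1, a forkhead factor of secretory epithelium, at 30.03 CPM. Neurog3, which starts the endocrine fate, was at 5.88 CPM with counts in 11 of 12 libraries. Hhex is also expressed in endothelium, whose 8 marker genes summed to 2257 to 15146 CPM, and the part of those cells in the Hhex level was not tested. Among granule genes they were Pam, which amidates peptide ends, at 124 CPM and Syt7, a calcium sensor of exocytosis, at 67.6 CPM. Among other hormones Tac1, the substance P precursor, was at 18.5 CPM and Ghrl, the ghrelin precursor, at 12.2 CPM, while Insl5 had no count in any of the 12 libraries. In serotonin handling they were Maoa, which degrades serotonin, at 155 CPM and Ddc, which completes its synthesis, at 46.8 CPM. The sensors so named were Slc5a1, the sodium glucose transporter, at 275 CPM and Abcc8, a potassium channel subunit, at 11.7 CPM. For receptors and peptidases they were Mme, the peptidase neprilysin, at 29.7 CPM and Npy1r, a receptor of the neuropeptide Y family, at 26.0 CPM.

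Genes that varied like the members were ranked by Pearson r between log2 of CPM plus 0.5 and the mean of the members on that scale over the 12 CD45- libraries, as a description without a test. The 10 non-member genes at the top were Sdsl (r = 0.941), Anxa11 (r = 0.936), Bcdin3d (r = 0.914), 5330417C22Rik (r = 0.913), Slc25a13 (r = 0.884), Tmem246 (r = 0.881), Defa17 (r = 0.878), Slc27a2 (r = 0.874), Defa30 (r = 0.873) and Ptprn2 (r = 0.872). Ptprn2, a granule membrane protein, was one of the list of granule genes. The lists ranged widely on this measure. Transcription factors ran from r = -0.395 for Hhex to 0.808 for Fev, a factor of serotonin cells, with a median of 0.502 over 20 genes. Granule genes ran from -0.478 for Pam to 0.872 for Ptprn2, with a median of 0.292 over 23. The median was 0.272 over 6 other hormone genes, 0.418 over 7 genes of serotonin handling, 0.702 over 10 pan-epithelial genes and -0.0663 over all 15320 genes ranked. The libraries share differences in depth and in epithelial content, which enter these values too.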

How the data were processed

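RNA of sorted ileal CD45+ and CD45- cells was made into poly-A selected, stranded libraries. The authors trimmed reads with cutadapt (3′ quality under 20, reads under 40 bases discarded), aligned them to mm10 with STAR and counted them per ENSEMBL gene with featureCounts. Tool versions and counting options are not given in the sources used here. The deposited values are raw counts per gene, not normalized.

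From these counts, edgeR 4.0.16 in R 4.3.3 was run on the 11 CD45- libraries that the study kept, with a mean for each of the 4 genotypes, TMM scaling, filterByExpr (minimum count 10, minimum total 15), the quasi-likelihood test and Benjamini-Hochberg adjustment over all 16453 genes at 0.05. For levels relative to Epcam, library sizes were set in proportion to the Epcam counts. The scripts were tested on simulated data. Alternatives were all 12 libraries, no filter, DESeq2 1.42.0, the likelihood ratio and exact tests of edgeR, RLE and total-count scaling, the summed pan-epithelial genes in place of Epcam, and each library left out in turn. The exact test was run within each Il4ra genotype. The Epcam-scaled comparisons within each Il4ra genotype, their interaction, and the counts of groups that do not overlap within f/f and dIEC mice relative to Epcam were added after values were seen.

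CPM was computed from the counts, and levels per kb used the union of exons of GENCODE M21 on GRCm38, to which 38872 of 39056 gene identifiers matched. The limit of 3 counts covers counting error only, since PCR reads without molecular identifiers are not independent molecules. The members and all gene lists were chosen with earlier results of these data known. Named genes are the 10 members, Rbck1, Il4ra and Epcam, of each endocrine list the 2 genes with the highest mean CPM and any gene past the threshold, and the 10 genes whose levels followed the member mean most closely. Replicate numbers follow accession order and pair no libraries. The result of 1 listed gene is not reported here.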

Additional observations from a re-analysis of the deposited data

Results flagged for a closer look

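For Gcg and Cck, the Hoil1 effect relative to Epcam differed between dIEC and f/f mice by the test of the difference itself. For Gcg the interaction was 3.467 log2 units (adjusted p = 0.0386 in edgeR) and for Cck it was 2.765 log2 units (adjusted p = 0.0413 in edgeR). The median over all genes was 3.39 log2 units, so Gcg was close to a typical gene and Cck was below it. Relative to Epcam, both genes were lower in both Hoil1-/- than in all 3 Hoil1+/+ libraries of f/f mice, as were 61.8% of all genes, and the groups overlapped in dIEC mice. The left-out Hoil1-/- library, at 54.7% of Epcam for Gcg and 12.1% for Cck, fell within the Hoil1+/+ values for both genes, so neither separates the f/f groups with all 12 libraries. The comparison was added after the values had been seen, and 43.8% of all genes passed it. It passed for 0 of 10 members with all 12 libraries and with the pan-epithelial sum in place of Epcam. Without single libraries, 0 to 4 members passed.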

How the results depend on the processing

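No paired analysis was possible because the replicate numbers were given in accession order only. The samples number 2 or 3 per genotype, and the narrowest 95% interval of a member for the averaged Hoil1 effect on the TMM scale reached 1.01 log2 units to either side. DESeq2 and the likelihood ratio test call many more genes than the quasi-likelihood test. The 3 genes called for the averaged Hoil1 effect were Rbck1, Trpm5 and Lrmp, and the 1 gene in dIEC mice was Rbck1. The cause of the changes below was not tested.

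The number of genes called for the averaged Hoil1 effect was 3 in the reported fit, 0 with all 12 libraries, 1 with RLE size factors, 168 with DESeq2, 135 with the likelihood ratio test, and 1 to 173 without single libraries, the highest without Hoil1-/-Il4ra f/f replicate 2. In f/f mice it was 6, against 0 with all 12 libraries, 11 with no filter, 613, 350 and 203 with DESeq2, the likelihood ratio test and the exact test, and 0 to 474 without single libraries. In dIEC mice it was 1, against 0 with all 12 libraries, 138, 62 and 40 with the same 3 tests, and 0 to 2 without single libraries. The Il4ra effect had 0, against 159 with DESeq2, 143 with the likelihood ratio test and 0 to 220 without single libraries. The interaction had 0, against 1 with no filter, 1466, 1223 and 0 to 1199 in the same order. Relative to Epcam, the averaged Hoil1 effect had 0, against 1 with all 12 libraries, 3 with no filter, 94 with DESeq2, 58 with the likelihood ratio test and 0 to 1 without single libraries. The Il4ra effect relative to Epcam had 0, against 136 with DESeq2 and 91 with the likelihood ratio test. In f/f mice relative to Epcam there were 0, against 3 with no filter, 4861 with DESeq2 and 393 with the likelihood ratio test, and in dIEC mice 0, against 33 with DESeq2 and 8 with the likelihood ratio test. The interaction relative to Epcam had 7202, against 0 with all 12 libraries, 0 with the pan-epithelial sum, and 0 (without Hoil1-/-Il4ra f/f replicate 1, among others) to 9810 (without Hoil1+/+Il4ra dIEC replicate 3) without single libraries.

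The number of members called stayed 0 in every alternative run for the averaged Hoil1 effect, the Hoil1 effect within each Il4ra genotype and the interaction on the TMM scale, and for both averaged effects relative to Epcam. It was 0 to 1 without single libraries for the Il4ra effect, where the 1 was Gip without Hoil1-/-Il4ra dIEC replicate 3. In f/f mice relative to Epcam DESeq2 called 1, Gcg. For the interaction relative to Epcam it was 2, against 0 with all 12 libraries, 0 with the pan-epithelial sum and 0 to 4 without single libraries. The number of members whose Hoil1 groups did not overlap over both Il4ra genotypes was 0 in each setting run.

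With all 12 libraries, 4 of the fold changes printed one by one changed sign: Nts to -0.14 for the averaged Hoil1 effect, Pyy to 0.047 for the Il4ra effect, and Cck to 0.030 and Sst to -0.17 for the averaged Hoil1 effect relative to Epcam. Others changed sign without single libraries. For the averaged Hoil1 effect the log2 fold changes then ran from -0.79 to 0.13 for Chga, -0.89 to 0.070 for Chgb, -0.58 to 0.34 for Cck, -0.77 to 0.64 for Sct, -1.81 to 0.63 for Nts, -0.56 to 1.61 for Pyy and -0.48 to 0.89 for Gip. In f/f mice Nts ran from -1.63 to 3.14, and for the Il4ra effect Pyy ran from -1.44 to 0.73. Relative to Epcam the averaged Hoil1 effect ran from -0.87 to 0.084 for Sct, -0.19 to 1.10 for Sst, -2.29 to 0.10 for Nts, -0.063 to 0.92 for Pyy and -0.36 to 0.40 for Gip. None of these fold changes passed the threshold in the reported fit.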
